A study of Rattus norvegicus with 7 samples.

Results

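Genes of the epidermal barrier were examined in rat meibomian gland after ultraviolet B (UVB) irradiation of the eyelid: involucrin, the plakins envoplakin and periplakin, 3 epidermal transglutaminases and the keratinocyte caspase. The genes were chosen by name from a list of 10 symbols, and 7 of the 10 had a row in the deposited tables: Ivl, Evpl, Ppl, Tgm1, Tgm3, Tgm5 and Casp14, out of 17245 genes with both a count and a TPM value (a level corrected for transcript length and library size). Flg, Cdsn and Asprv1, which encode filaggrin, corneodesmosin and a protease that processes profilaggrin, were not analysed here. All 7 genes passed the low-count filter and were among the 13709 genes tested. The list of 10 symbols was drawn up with earlier results of these data known.

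The glands came from wild-type female Sprague-Dawley rats aged 3 months. The control group held 4 libraries from rats listed as receiving no treatment, and the UVB group held 3 libraries from rats whose upper eyelids were shaved and given 300 mJ/cm2 of UVB over 5 min on each of 5 days. Whether controls were shaved, and how long after the last exposure the glands were taken, are not stated in the labels. The labels number the samples of a group but do not say that they are separate animals, so p-values measure the spread between these samples. The table columns name a library's group but no label number, and the letters used below (controls a, b, c and d; UVB libraries a, b and c) follow column order and carry no pairing.

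The meibomian gland secretes the lipid of the tear film through a duct lined by a stratified epithelium that keratinises toward the lid margin, and thickening of that lining is known to obstruct the gland. In a cornifying keratinocyte, envoplakin and periplakin assemble at the plasma membrane near desmosomes together with involucrin. Transglutaminases then join these and other proteins by bonds between glutamine and lysine side chains, which gives the insoluble cornified envelope. Caspase-14 takes part in the breakdown of filaggrin in the same cells.

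The clearest difference was the rise of the transglutaminase gene Tgm3. A smaller rise of Tgm1 and falls of Tgm5 and Evpl were less stable when single libraries were left out. Tgm3 and Tgm5 lie on the same chromosome in RefSeq assembly GRCr8, Tgm3 beside Tgm6 and Tgm5 between Epb42 and Tgm7. The 250 bases before the annotated start of Tgm3 and of Tgm5 are shown because these genes moved in opposite directions. They are read 5′ to 3′ on the gene's own strand, from RefSeq's GRCr8 promoters, at chr3:137681559-137681808 (plus strand) for Tgm3 and chr3:128497762-128498011 (minus strand) for Tgm5. Capitals mark the matched motifs.

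Tgm3: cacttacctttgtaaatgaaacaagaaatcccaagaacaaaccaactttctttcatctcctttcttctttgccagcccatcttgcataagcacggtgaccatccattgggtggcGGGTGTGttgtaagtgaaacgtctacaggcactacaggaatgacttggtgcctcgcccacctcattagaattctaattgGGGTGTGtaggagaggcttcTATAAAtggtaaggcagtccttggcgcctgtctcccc

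Tgm5: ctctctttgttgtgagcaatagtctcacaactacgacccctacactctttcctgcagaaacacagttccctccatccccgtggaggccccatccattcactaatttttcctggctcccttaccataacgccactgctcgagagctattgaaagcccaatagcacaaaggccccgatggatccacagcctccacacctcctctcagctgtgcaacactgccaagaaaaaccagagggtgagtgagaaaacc

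Both strands were searched for the AP-1 motif TGANTCA, the grainyhead-like motif AACCGGT, the KLF motif GGGTGTG and the TATA box TATAAA, and no match overlapped another. The Tgm3 window held GGGTGTG at 136 to 130 and at 57 to 51 bases before the start, and TATAAA at 37 to 32. The Tgm5 window held no match to any of the 4. Among 33469 RefSeq promoter windows of the same length, 6.12% held GGGTGTG, 12.9% held TATAAA, 6.34% held TGANTCA and 0.786% held AACCGGT. GC content was 47.2% in the Tgm3 window and 51.6% in that of Tgm5, against a median of 51.2% over all windows. Of the 10 listed genes, 9 had a promoter in that table, and Evpl had no entry. The table's starts of Tgm1, Ivl and Casp14 lie inside the span of the gene, so their windows are not shown. These matches describe letters in a window and were not tested against the expression values.

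Library totals ran from 20680237 to 28784941 counts, and the smallest count of any of the 7 genes was 41, for Ivl in UVB b. Each of the 7 genes had a whole count in all 7 libraries. Markers of other cells in the dissected gland were present in both groups, with no marker of any of the 9 lists at 0 in every library. The summed TMM-normalised CPM of the 8 hair follicle markers ran from 710.9 to 1085 in the controls and from 310.0 to 828.4 after UVB, with 3 of the 8 called lower. The 5 suprabasal epidermal markers, which include Krt1 and Krt10, summed to between 3174 and 4066 CPM in the controls and between 3624 and 5480 after UVB, highest in UVB c, with 1 called lower. The 8 markers of meibocytes, the lipid-secreting cells, summed to between 92321 and 113820 CPM in the controls and between 88296 and 108370 after UVB. Scd made up most of that sum, at means of 79749 CPM in the controls and 77588 CPM after UVB. Its counts were not whole in any library, so the sum says little about the other markers. Awat2 (log2 fold change -0.66) and Plin2 (-0.45) were called lower, and 4 of the 8 markers had a log2 fold change above 0. The 4 basal epithelial markers summed to between 9335 and 11685 CPM in the controls and between 11767 and 12614 CPM after UVB, without overlap. Krt14 (log2 fold change 0.47) and Itga6 (0.25) were called higher, while Krt5 (-0.021) and Col17a1 (-0.18) were not called. The separation of these sums rested on Krt14, with means of 5100 CPM in the controls and 7059 CPM after UVB. Counts of Krt14 and Krt5 were not whole in any library, so their levels are uncertain. Of the 5 fibroblast markers, Lum (1.95), Dcn (0.95) and Pdgfra (0.91) were called higher. The most abundant of the list, Col1a1 (-0.48) and Col3a1 (0.019), were not called. The list's sum overlapped, at 2419 to 3756 CPM in the controls and 2456 to 4094 CPM after UVB. The sums of the conjunctival, immune, skeletal muscle and shared epithelial markers overlapped between groups. Over all genes tested, 6.30% were called higher and 6.74% lower. The part of these cell types in the results below was not tested. In bulk tissue, fewer cells of a type and less RNA per cell cannot be told apart.

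**Figure D1:**
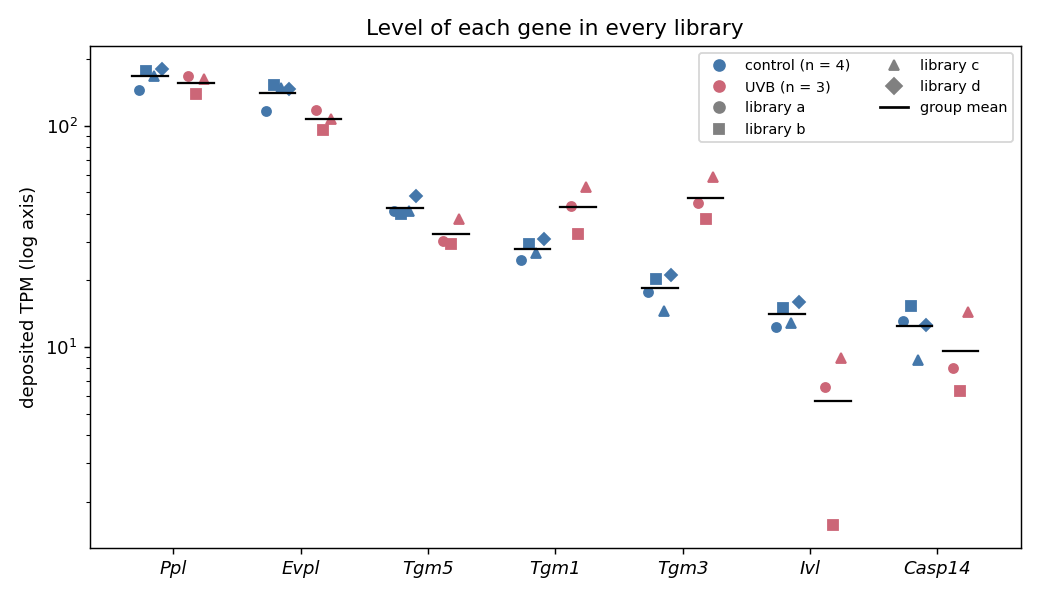
Deposited TPM of each gene (log axis) in the 4 control and 3 UVB libraries, with marker shape giving the library letter and black lines the group means. Tgm1 and Tgm3 sit higher in every UVB library, Tgm5 and Ivl lower, while Casp14 and the plakins overlap between groups on this scale.

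Calls rest on an adjusted p under 0.05 in edgeR's quasi-likelihood test, adjusted by Benjamini-Hochberg over all genes tested. Tgm1 and Tgm3, 2 of the 7 genes, were called higher, as were 6.30% of all genes. Tgm5 and Evpl, also 2 of the 7, were called lower, as were 6.74% of all genes. The log2 fold changes of the 7 ran from -1.32 to 1.35 with a median of -0.37, against a median of -0.0058 over all genes tested. In TMM-normalised CPM the groups did not overlap for 5 of the 7 genes. The 2 transglutaminases lay above the controls, as 12.8% of all genes did, and Ivl, Tgm5 and Evpl lay below them, as 13.8% of all genes did. Of all called genes, 48.3% were higher, a share that became 59.5% when libraries were scaled to 6 epithelial genes and 15.7% when they were scaled to Krt1 and Krt10. That last scaling moved the median of all genes to -0.25.

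Per length, Ppl was the most abundant of the 7 genes in every library and Evpl the next. In the controls the order of mean TPM was Ppl, Evpl, Tgm5, Tgm1, Tgm3, Ivl and Casp14. The control ranges of Ppl and Evpl overlapped, as did those of Tgm3 and Ivl and those of Ivl and Casp14, while the steps from Evpl to Tgm5, Tgm5 to Tgm1 and Tgm1 to Tgm3 had no overlap. After UVB the order was Ppl, Evpl, Tgm3, Tgm1, Tgm5, Casp14 and Ivl. There the ranges of Tgm3 and Tgm1, of Tgm1 and Tgm5, and of Casp14 and Ivl overlapped.

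The plakins came first in level. Evpl (NCBI gene 303687) encodes envoplakin, a scaffold protein of the envelope that pairs with periplakin. It measured 116.3, 153.4, 148.1 and 147.4 TPM in controls a-d and 117.9, 96.3 and 107.5 TPM in UVB libraries a-c. Control a was the lowest control, just under UVB a, so the groups overlapped by that pair in TPM. In TMM-normalised CPM the lowest control stood at 464.6 and the highest UVB library at 455.9, and the groups did not overlap. Evpl fell by 0.40 on the log2 scale (SE 0.10, edgeR adjusted p = 0.0320). The call was lost without UVB b (adjusted p = 0.104), UVB c (0.0801), control b (0.0766), control c (0.0820) or control d (0.0876), while the log2 fold change stayed between -0.48 and -0.34 in the 7 fits that each left out 1 library.

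Ppl (NCBI gene 302934), which encodes periplakin, measured 144.6, 176.8, 167.6 and 181.3 TPM in controls a-d and 167.6, 140.1 and 163.0 TPM in UVB libraries a-c. The groups overlapped widely. The fitted difference was -0.10 on the log2 scale (SE 0.094), with an edgeR adjusted p of 0.505, and Ppl was called in 0 of 21 alternatives, DESeq2 among them. The unadjusted p of Ppl was 0.301.

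Since both proteins enter the same complex, the ratio of Evpl to Ppl TPM was taken within each library, which removes any difference in scaling between libraries. The ratio was 0.804, 0.868, 0.883 and 0.813 in controls a-d and 0.703, 0.688 and 0.660 in UVB libraries a-c. Every UVB library lay below every control. The control mean was 0.842 ± 0.0395 (SD, n = 4) and the UVB mean 0.684 ± 0.0220 (SD, n = 3), with an exact two-sided permutation p of 0.0286. That is the smallest value 4 against 3 libraries can give. It became 0.0358 after Benjamini-Hochberg adjustment over the 5 within-library measures tested. Those include the ratios of Tgm3 and Tgm1 to Tgm5, given below, whose separation was fixed beforehand. Their small p-values lower the adjusted value, which is therefore no guard against testing several measures. All 5 measures were chosen after the values had been seen.

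Ivl (NCBI gene 60583) encodes involucrin, a glutamine-rich substrate that is among the first proteins to be crosslinked. It measured 12.3, 15.1, 12.9 and 16.0 TPM in controls a-d and 6.61, 1.57 and 8.90 TPM in UVB libraries a-c. Every UVB library lay below every control, and UVB b stood far below the other 2. The log2 fold change was -1.32 (SE 0.46), a fold of 0.401, with an unadjusted p of 0.0233 and an edgeR adjusted p of 0.108, so Ivl did not pass the threshold. The call turned on single UVB libraries. Without UVB b the log2 fold change was smaller, -0.87, and the adjusted p was 0.0245, and without UVB c it was -1.83 with 0.0492. In limma-voom it was -1.65 with an adjusted p of 0.0392, and the adjusted p ran from 6.18e-09 to 0.217 over 21 alternatives, 5 of which called it. The smallest of these came from edgeR scaled to Krt1 and Krt10, which moved the median of all genes to -0.25. There the log2 fold change was -1.66, or -1.41 against that median.

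Tgm1 (NCBI gene 60335) encodes the membrane-anchored transglutaminase of keratinocytes, whose loss causes a congenital ichthyosis. It measured 24.8, 29.1, 26.7 and 30.7 TPM in controls a-d and 43.6, 32.4 and 53.0 TPM in UVB libraries a-c. The groups did not overlap, but UVB b came close to control d. Tgm1 rose by 0.62 on the log2 scale (SE 0.15), with an edgeR adjusted p of 0.0318, from 27.8 ± 2.63 TPM (SD, n = 4) to 43.0 ± 10.3 TPM (SD, n = 3). The call was lost without UVB a (adjusted p = 0.0759), UVB c (0.0633) or any of controls a-d (0.0668, 0.0643, 0.0826 and 0.0539). Without UVB c the log2 fold change was 0.44, and without UVB b it was 0.78 with an adjusted p of 0.00839. When libraries were scaled to Krt1 and Krt10 it was 0.34 (adjusted p = 0.337), or 0.59 above the median of all genes under that scaling, against 0.62 in the first fit.

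Tgm3 (NCBI gene 366189) encodes a soluble transglutaminase, activated by proteolysis, that acts in the upper epidermis and in the inner root sheath and hair shaft. It measured 17.8, 20.2, 14.5 and 21.2 TPM in controls a-d and 44.6, 38.1 and 58.9 TPM in UVB libraries a-c. Every UVB library was above every control by a wide margin, with UVB c the highest. Tgm3 rose 2.55-fold, or by 1.35 on the log2 scale (SE 0.17), with an edgeR adjusted p of 0.00479. It was called in 21 of 21 alternatives, with log2 fold changes from 1.08 to 1.48 and adjusted p-values from 3.07e-12 to 0.0134. Scaled to Krt1 and Krt10 it was 1.08, or 1.33 above the median of all genes. In GRCr8 Tgm3 overlaps the long noncoding RNA gene LOC134486444, and since the handling of strand is not stated, reads of the 2 cannot be told apart. The hair follicle markers summed to 338.9, 310.0 and 828.4 CPM in these UVB libraries, and the basal markers to 12614, 11767 and 12563 CPM. The part of either in the values of Tgm3 was not tested.

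Tgm5 (NCBI gene 691932) encodes another epidermal transglutaminase, whose loss causes acral peeling skin. It measured 41.2, 39.9, 41.3 and 48.0 TPM in controls a-d and 30.0, 29.3 and 37.8 TPM in UVB libraries a-c. The groups did not overlap, with UVB c nearest to the controls. Tgm5 fell by 0.40 on the log2 scale (SE 0.11, edgeR adjusted p = 0.0354), from 42.6 ± 3.64 TPM (SD, n = 4) to 32.4 ± 4.74 TPM (SD, n = 3). The call was lost without UVB a (adjusted p = 0.104), UVB b (0.121) or any of controls a-d (0.0543, 0.0553, 0.0670 and 0.0881). Without UVB c the log2 fold change was -0.53 (adjusted p = 0.0162), and without control d it was -0.33. Scaled to the 6 epithelial genes it was -0.34 with an adjusted p of 0.133, and by library size alone it was -0.40 with 0.0505.

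**Figure D2:**
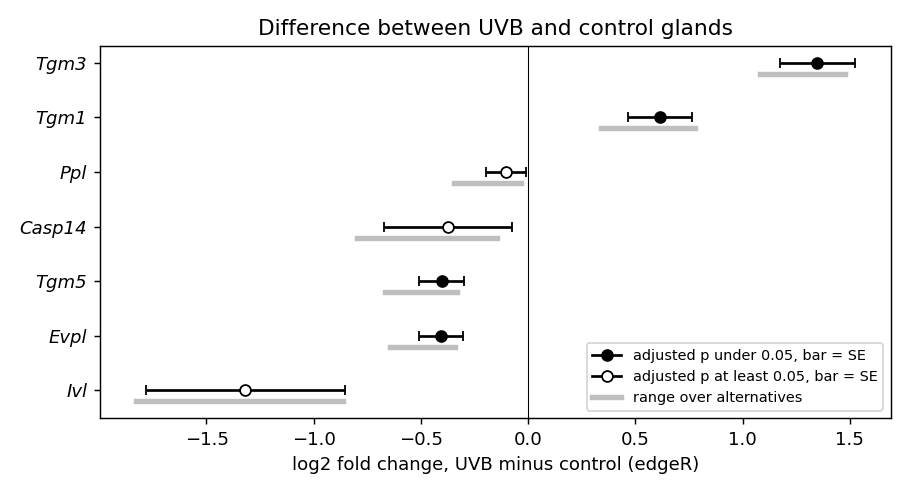
Log2 fold change of each gene (UVB minus control, edgeR, bars are SE), filled where the adjusted p was under 0.05, with grey bars for the range over 21 alternatives. Tgm3 at 1.35 and Tgm1 at 0.62 lie above 0, and the 5 other genes lie below 0 in the main fit and in each alternative.

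The order of the 3 transglutaminases by TPM turned over. In each of the 4 controls it was Tgm5, then Tgm1, then Tgm3, and in each of the 3 UVB libraries it was Tgm3, then Tgm1, then Tgm5. The step from Tgm3 to Tgm1 was narrow in UVB a, at 44.6 and 43.6 TPM. Of their summed TPM, Tgm3 made up 20.7% ± 2.15 (SD, n = 4) without UVB and 38.4% ± 0.824 (SD, n = 3) with UVB. The share of Tgm5 was 48.0% ± 2.33 (SD, n = 4) and 26.7% ± 2.31 (SD, n = 3). That of Tgm1 was 31.3% ± 1.44 and 34.9% ± 2.23, with UVB b at 32.5% inside the control range of 29.6% to 32.6%. For Tgm3 and Tgm5 the shares of the groups lay far apart compared with the spread within them. In TPM, Tgm1 and Tgm3 lay above every control in each UVB library and Tgm5 below. The separation of the Tgm5 share was thus fixed beforehand. Its drop holds the rises of Tgm1 and Tgm3 as well as the fall of Tgm5, and adds nothing to the values of the single genes.

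**Figure D3:**
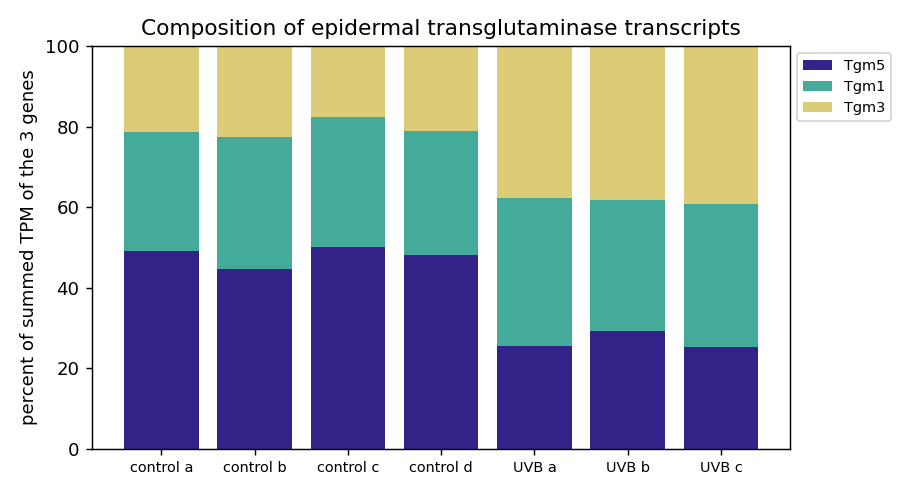
Share of each gene in the summed TPM of Tgm5, Tgm1 and Tgm3 (percent, stacked to 100) in each library. Tgm5 takes the largest share in the 4 controls and the smallest in the 3 UVB libraries, where Tgm3 takes 37.7% to 39.3%.

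The ratio of Tgm3 to Tgm5 TPM within a library was 0.432, 0.506, 0.352 and 0.441 in controls a-d and 1.48, 1.30 and 1.56 in UVB libraries a-c. Every control was below 1 and every UVB library above it. The mean was 0.433 ± 0.0632 (SD, n = 4) and 1.45 ± 0.131 (SD, n = 3), a difference of 1.75 on the log2 scale (exact two-sided permutation p = 0.0286, adjusted 0.0358). With any one library left out the difference stayed between 1.65 and 1.83. The ratio of Tgm1 to Tgm5 was 0.601, 0.730, 0.646 and 0.640 in the controls and 1.45, 1.11 and 1.40 after UVB. It differed by 1.01 on the log2 scale (exact permutation p = 0.0286, adjusted 0.0358), between 0.93 and 1.13 with any one library left out. In TPM, Tgm3 and Tgm1 lay above every control in each UVB library and Tgm5 below. The separation of both ratios to Tgm5 was thus fixed beforehand, and their permutation p-values add nothing to the values of the single genes. Ratios among these genes also depend on each other and were chosen after the values had been seen. The ratio of Tgm3 to Tgm1 was 0.662 ± 0.0794 (SD, n = 4) and 1.10 ± 0.0764 (SD, n = 3), with the same exact permutation p. In UVB libraries a-c it was 1.02, 1.18 and 1.11, so UVB a lay close to 1. The summed TPM of the 3 genes was 83.8, 89.3, 82.6 and 99.9 in the controls and 118.2, 99.8 and 149.7 after UVB. That sum overlapped between the groups by 1 pair, control d and UVB b, and had an exact permutation p of 0.0571 (adjusted 0.0571).

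**Figure D4:**
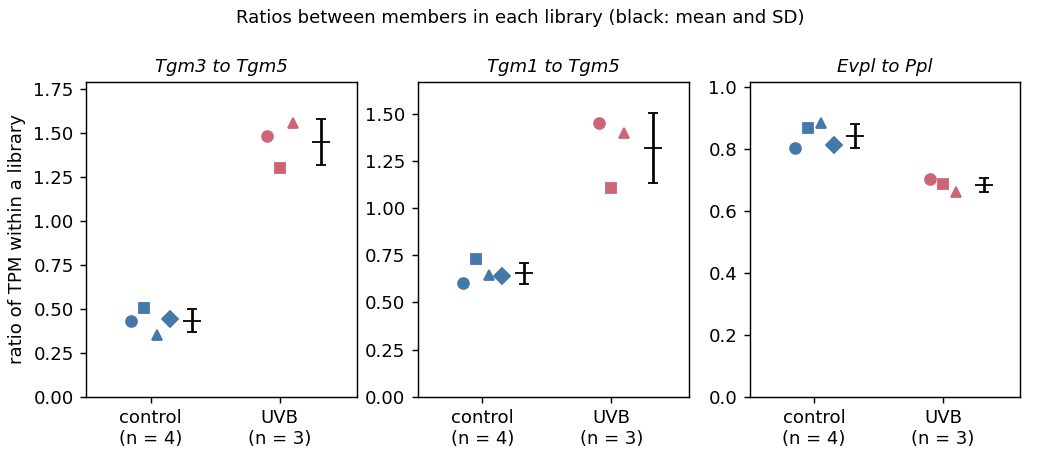
Ratio of deposited TPM between 2 genes within each library for Tgm3 to Tgm5, Tgm1 to Tgm5 and Evpl to Ppl, with the mean and SD of each group in black and marker shape giving the library letter. The groups do not overlap in any of the 3 panels.

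Casp14 (NCBI gene 299587) encodes the caspase of cornifying epithelium. It measured 13.1, 15.3, 8.70 and 12.6 TPM in controls a-d and 8.07, 6.33 and 14.4 TPM in UVB libraries a-c. UVB c was as high as the controls while the other 2 were below all of them. The fitted difference was -0.37 on the log2 scale (SE 0.30), with an edgeR adjusted p of 0.441, and it ran from -0.80 without UVB c to -0.15 without UVB b, with no call in either. Scaled to Krt1 and Krt10 it was -0.68 (adjusted p = 0.0453), or -0.43 against the median of all genes.

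Some libraries held the same rank for most of these genes. Such ranks were not counted over all genes tested, so they are not read as a trait of these genes. In TMM-normalised CPM, UVB c was the highest UVB library for 5 of the 7 genes and UVB b the lowest for 6 of the 7. Control d was the highest control for 5 of the 7. The lowest was control a for 4, control c for 2 and control b for 1. The suprabasal marker sum had the same extremes within the UVB group, 5480 CPM in UVB c and 3624 CPM in UVB b. Within the controls its extremes differed from those of the genes, with 4066 CPM in control b as the highest and 3174 CPM in control c as the lowest. Its part in the values of the 7 genes was not tested.

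The genes with the most similar profile were sought for the 3 called genes with the smallest p-values, among 11323 named genes with a mean count of at least 50. Likeness was the root mean square distance over 7 libraries between log2 CPM profiles centred on their own means. The nearest to Tgm3 were Klk14 (a distance of 0.096), a kallikrein protease, Cnfn (0.11), which encodes cornifelin, and Sprr3 (0.12), a small proline-rich envelope precursor. The nearest to Tgm1 were Ltbp2 (0.079), Krt78 (0.088) and Ttc25 (0.095). The nearest to Evpl were B4galt4 (0.042), Tacc2 (0.045) and Xrcc1 (0.052). These profiles hold the difference between the groups as well as the spread within them.

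Genes that act with the barrier proteins were followed in 7 lists that held 69 tested genes. Of these, 5 (7.25%) were called higher and 16 (23.2%) lower, against 6.30% and 6.74% of all genes, so the share called higher was near that of all genes. The lists were chosen with earlier results of these data known, so the larger share called lower is a description and not independent evidence. Other envelope precursors and partners moved both ways. Of 12 tested, 2 were called higher and 5 lower, with a median log2 fold change of -0.27. Cnfn, which encodes the envelope protein cornifelin, rose by 1.37 (SE 0.12, edgeR adjusted p = 0.00107), from 147.0 to 382.5 TPM. Lypd3, a surface protein of suprabasal keratinocytes, rose by 0.62 (SE 0.091, adjusted p = 0.00520). Cst6, an inhibitor of the cathepsins that act in cornification and the most abundant gene of the list, fell by 1.28 (SE 0.24, adjusted p = 0.0165), from 3161 to 1312 TPM, and Sbsn, suprabasin, fell by 0.53 (SE 0.097, adjusted p = 0.0107). These 4 kept their calls without any one library. Lypd3 lost its call when scaled to Krt1 and Krt10 (adjusted p = 0.310). Cnfn and Sbsn each overlap another protein-coding gene in GRCr8, so their counts are uncertain.

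Enzymes and inhibitors that act on filaggrin were lower or not called. Of 13 tested, 0 were called higher and 5 lower by edgeR, against 6.30% and 6.74% of all genes, with a median of -0.39. Without adjustment 1 gene was higher at p under 0.05, and DESeq2 and limma-voom called 0 higher. The membrane protease gene Prss8 fell by 0.39 (SE 0.058, edgeR adjusted p = 0.00584) and kept its call without any one library, but lost it when scaled to the 6 epithelial genes (adjusted p = 0.125). Its counts were not whole in any library and it overlaps Kat8, so its level is uncertain. Spink5, the inhibitor of epidermal kallikreins, fell by 0.74 (SE 0.16, adjusted p = 0.0245) from 340.6 to 205.7 TPM, and was called in 4 of the 7 fits that each left out 1 library, with adjusted p-values up to 0.0629 without control a, b or d. The proprotein convertase gene Pcsk6 fell by 0.57 (SE 0.14, adjusted p = 0.0309), called in 3 of those 7 fits. Hal, which encodes the histidase that turns histidine released from filaggrin into urocanic acid, fell by 1.33 (SE 0.38, adjusted p = 0.0460), called in 1 of the 7, at levels of 1.20 and 0.463 TPM. The most abundant of the list, Ppp2ca, was not called (-0.19, SE 0.067, adjusted p = 0.0908), and its counts were not whole in any library.

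Of 12 desmosome genes tested, 1 was called higher and 1 lower, with a median of 0.060, and these shares are near those of all genes. Dsg3, the desmoglein of basal layers, rose by 0.50 (SE 0.074, edgeR adjusted p = 0.00584), kept without any one library and lost when scaled to Krt1 and Krt10 (adjusted p = 0.494). Dsg4, a desmoglein of hair and upper epidermis that is also among the hair follicle markers, fell by 1.28 (SE 0.33, adjusted p = 0.0393), called in 2 of the 7 fits that each left out 1 library. Perp was the most abundant and was not called (0.048, SE 0.077, adjusted p = 0.724).

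Among 6 other members of the transglutaminase family, 0 were called higher and 2 lower by edgeR, against 6.30% and 6.74% of all genes. No gene was higher at an unadjusted p under 0.05, and DESeq2 and limma-voom also called 0 higher. Tgm2, the transglutaminase of many tissues and the most abundant of these at 80.2 and 53.4 TPM, fell by 0.60 (SE 0.10, edgeR adjusted p = 0.00786), called without any one library and in each other alternative. Tgm6, the neighbour of Tgm3, fell by 1.18 (SE 0.27, adjusted p = 0.0222) from 2.22 to 0.970 TPM, and lost its call without control d, UVB a or UVB b, at adjusted p-values up to 0.0708. Tgm7 and Epb42, the neighbours of Tgm5, were below 1 TPM and not called. The called rises in the family were those of Tgm1 and Tgm3, and the falls those of Tgm2, Tgm5 and Tgm6.

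None of 4 other plakin genes was called by edgeR, with log2 fold changes from -0.30 to -0.088. Without adjustment 1 gene, Dst, was lower at p under 0.05, and DESeq2 called it while limma-voom called 0 of the 4. The most abundant, Dsp, which encodes desmoplakin, had -0.17 (SE 0.097, adjusted p = 0.285). Of 8 other caspase genes, 1 was called higher and 1 lower, against 6.30% and 6.74% of all genes, with a median of -0.12. With 8 genes, 1 call each way is near those shares. Casp1, which processes interleukin-1 beta, fell by 0.51 (SE 0.14, edgeR adjusted p = 0.0393), called in 1 of the 7 fits that each left out 1 library. Casp9, the most abundant, was not called (0.17, SE 0.11, adjusted p = 0.314), and its count is uncertain because it overlaps another protein-coding gene.

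Of 15 transcription factor genes of barrier formation, 1 was called higher and 2 lower, against 6.30% and 6.74% of all genes, with a median of -0.057. With 15 genes, these counts are near those shares. Znf750, a factor of terminal keratinocyte differentiation, fell by 0.34 (SE 0.081, edgeR adjusted p = 0.0264), called in 3 of the 7 fits that each left out 1 library, and Prdm1 fell by 0.47 (SE 0.13, adjusted p = 0.0480), called in 1 of the 7. The count of Znf750 is uncertain, since another protein-coding gene overlaps it in GRCr8. The most abundant, Hopx, was not called (-0.25, SE 0.080, adjusted p = 0.0678). Grhl3, a grainyhead-like factor of the barrier, measured 0.43 (SE 0.14, adjusted p = 0.0781), and Klf4, another barrier factor, -0.011 (SE 0.13, adjusted p = 0.969). Klf4 overlaps another protein-coding gene as well. Grhl3 and Klf4 were named after their values were seen, for the motifs searched above.

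**Figure D5:**
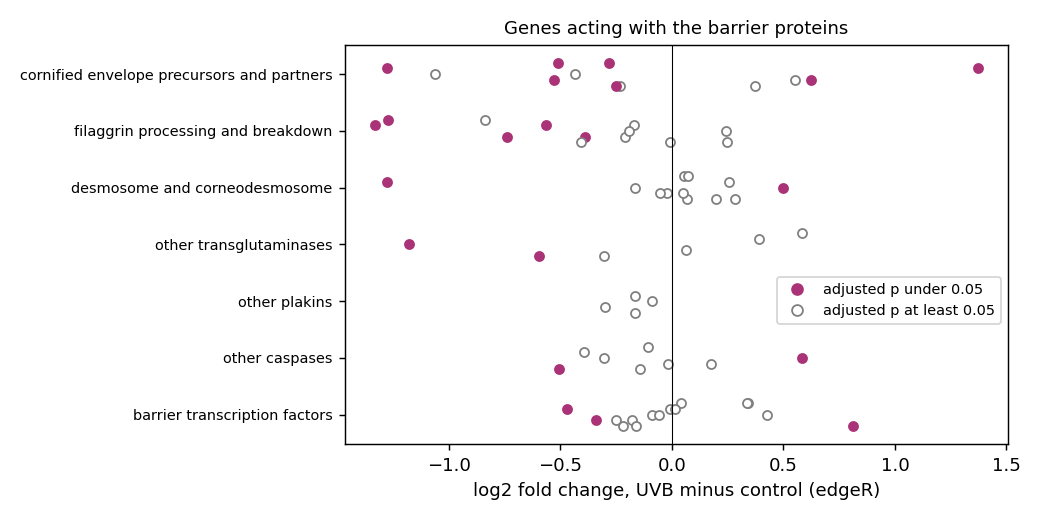
Log2 fold change (UVB minus control, edgeR) of each tested gene of the 7 lists, filled where the adjusted p was under 0.05. Most filled points lie below 0, and Cnfn, at 1.37, is the highest of all.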

How the data were processed

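RNA was sequenced from 4 control and 3 UVB meibomian glands. The authors deposited expected counts (estimated counts per gene, 12.5% of them not whole) and TPM values, whose sums over a library ran from 82.0% to 84.1% of the full scale. Per the submitters' processing notes the build was rn7 and FastQC, Trimmomatic, DRAGEN and Picard were used; the annotation and handling of strand are not given in the sources used here. Unquoted commas in gene names shift cells, so each row's last 7 cells were taken as its values, and 5 rows without a value were dropped.

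Counts were rounded and tested in edgeR 4.0.16 (R 4.3.3): quasi-likelihood test, robust estimation, TMM, filterByExpr, two-sided, Benjamini-Hochberg over all genes. SE is the absolute log2 fold change over the square root of F. Fits were tested on simulated data. The members and lists were chosen with earlier results of these data known. From each list the text names up to 4 called genes of smallest p and the most abundant one. Some genes that this rule selects are not reported here. Alternatives were DESeq2 1.42.0, limma 3.58.1 (voom, with and without weights, and log2(TPM + 1) or log2(TPM + 0.1)), other scalings and filters, and each library left out. Of the listed symbols, those without a row were not analysed here. RefSeq GRCr8 served for names, neighbours, gene overlaps and promoters only. It is not the build named in the processing notes, rn7.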

Additional observations from a re-analysis of the deposited data

Results flagged for a closer look

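A single control lay well apart from its group in 2 of 43 comparisons among the 4 controls, where about 1 in 20 does so by chance. For Prss8, control b had 97.6 CPM and the remaining controls 105.3 to 106.2, so its gap was 0.886 of the group's range. For Tgm3 to Tgm1, control c had a ratio of 0.544 and the remaining controls 0.690 to 0.719, a gap equal to 0.831 of their range. With only 3 libraries, the UVB group was not assessed for this.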

How the results depend on the processing

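No paired analysis was possible because no column header shows which numbered sample of its group it holds. All 7 genes kept their sign in each of 21 alternatives, but only the call of Tgm3 held in all of them. Of the 2 genes called higher, 1 remained when scaled to Krt1 and Krt10 and with unfiltered log2(TPM + 1). The 2 called lower became 0 by library size alone, 0 when scaled to the 6 epithelial genes, 0 under log2(TPM + 1) without a filter, and 1 under log2(TPM + 1) or log2(TPM + 0.1) with the filter. Leaving out each library gave 1 to 2 higher and 0 to 2 lower. In the 7 lists, the 5 genes called higher became 8 under DESeq2 and 1 when scaled to Krt1 and Krt10, and the 16 called lower became 9 when scaled to the 6 epithelial genes and 7 under log2(TPM + 1) without a filter. With each library left out they ran from 5 to 10 higher (10 without UVB b) and from 5 to 16 lower, with 6, 7 and 5 lower without control b, c and d and 8 and 7 without UVB a and b. Fewer libraries lower the power of those fits; the cause of the other differences was not tested. Over all genes, 1787 were called, against 1137 under log2(TPM + 1) without a filter and 851 (without control c) to 1898 (without control a) with a library left out.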
